A study of Equus caballus with 4 samples.

Results

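The genes described here encode transcriptional inhibitors of muscle differentiation: the ID proteins (ID1, ID2, ID3 and ID4), the TWIST proteins (TWIST1 and TWIST2), the SNAIL zinc fingers (SNAI1 and SNAI2), the homeodomain repressor MSX1 and the Notch-responsive repressor HEYL. Of these 10 genes, 5 had array probes that carried exactly their symbol as gene name, with 9 probes in all: ID2 and SNAI2 with 3 probes each, and ID3, SNAI1 and HEYL with 1 each. A further 3 genes, ID1 (5 probes), ID4 (1) and MSX1 (1), were found only through the description of probes whose gene name is a transcript identifier. That lookup was added after the data had been seen, and its values are kept apart in the counts. Together these are 16 of the 43603 gene probes of the array. TWIST1 and TWIST2 were matched to no probe by either route and were not analysed here.

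Skeletal muscle differentiation is driven by basic helix-loop-helix (bHLH) factors of the MyoD family, which bind DNA as dimers with the ubiquitous E proteins and act together with MEF2 factors. ID proteins keep the helix-loop-helix dimerisation surface but lack the basic, DNA-binding region, so that they hold E proteins in inactive dimers. Their genes are classical targets of BMP and SMAD signalling. TWIST proteins compete for the same E proteins, SNAIL proteins occupy E-box motifs in muscle enhancers of proliferating myoblasts, MSX1 represses the MyoD gene, and HEYL belongs to the bHLH repressors that Notch signalling induces in satellite cells.

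Differentiating equine satellite cells, the stem cells of skeletal muscle, grown from the semitendinosus muscle, were compared at day 3 of differentiation. Treated cultures were kept for 24 h with 0.125 µM gamma-oryzanol (GO), a rice bran product made of ferulic acid esters of sterols and triterpene alcohols, and were exposed to 3 mM hydrogen peroxide (H2O2) in the last 1 h of it. Control cultures received no GO. Per the study's methods they received the DMSO vehicle and were exposed to H2O2 as well, while the labels do not say whether they were. Treated RNA (red channel, Cy5) and control RNA (green channel, Cy3) were hybridised together on 4 two-colour Agilent horse arrays of 1 slide, with 1 treated replicate and a control RNA on each. No dyes were swapped, so that a dye effect and a treatment effect cannot be told apart. The descriptions of the samples give the control the same replicate name on every array, although the design counts 4 control replicates. The methods describe the choice of 1 primary cell line from muscle of young stallions, so that the p-values measure the spread between cultures or arrays and not between horses.

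All ratios below are log2 of treated over control after background correction and loess normalisation within each array, so that a value below 0 means less signal with GO and H2O2. Tests were run on the 24229 probes whose red or green signal exceeded background clearly (Agilent's mark for it) on each of the 4 arrays. Each mean ratio over the 4 arrays was tested against 0 with limma, two-sided, with Benjamini-Hochberg adjustment over these probes and a threshold of 0.05. By that test 17.1% of all tested probes passed, 9.49% higher and 7.59% lower with GO and H2O2. Over all tested probes the median ratio was 0.0030, the median absolute ratio 0.092 and the median SD between arrays 0.093. The share of gene probes well above background was 54.9% to 61.3% in the green and 56.7% to 61.4% in the red channel, and no gene spot was saturated (0).

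Among the inhibitors of differentiation, ID2 was the only gene with probes past the threshold. Probes 1 and 3 of its 3 probes were lower after GO and H2O2, by 0.20 and 0.19 on the log2 scale, and the remaining ID2 probe did not pass. Averaged over its 3 probes ID2 did not pass either (limma adjusted p = 0.0612), and differences between the genes were not tested. No probe of ID1, ID3, ID4, SNAI1 or SNAI2 passed the test in either direction. Counted by gene name, 2 of 8 tested probes passed with limma, both lower and 0 higher, beside 7.59% lower and 9.49% higher among all tested probes. With the probes named through their description, the count was 2 of 14, beside 17.1% of all tested probes in either direction. With 1 probe per gene (the brightest tested), 1 of 6 genes passed, namely ID2, which was lower. Over all genes with 1 probe per gene name, 17.7% passed in either direction and 8.07% were lower. In either direction these counts are close to the background. At an unadjusted p under 0.05, 3 of the 8 and 4 of the 14 passed, all of them lower (all tested probes, either direction: 36.7%; lower: 17.5%). None of the 14 reached a fold change of 1.3 with an adjusted p under 0.05 (0 probes; 1.42% of all tested probes).

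The tested probes leaned to values below 0. Mean ratios were below 0 for 8 of 8 probes by gene name and for 13 of 14 in all, against 49.2% of all tested probes. Their median was -0.15 for the 8 and -0.14 for the 14, beside 0.0030 over all tested probes. Counted by gene, with the brightest tested probe of each, 5 of 6 means were below 0 and the median was -0.12. On all 4 arrays 3 of the 8 probes were below 0 (ID2 probes 1 and 3 and SNAI2 probe 1), beside 21.2% of all tested probes. With ID4, which was above 0 on all 4, the sign was the same on every array for 4 of the 14, beside 43.8% of all tested probes. Several of these probes overlap in sequence and share arrays, so they are not 14 independent values. In replicates 1 to 4, 7, 6, 6 and 8 of the 8 probes by gene name were below 0, and 12, 6, 11 and 13 of all 14 (all tested probes: 52.7%, 48.0%, 49.4% and 48.9%). In replicate 2 the probes above 0 were those of ID1 and ID4, ID2 probe 2 and ID3. Without replicate 4 the median of the 8 was -0.15 and that of the 14 was -0.070.

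**Figure D1:**
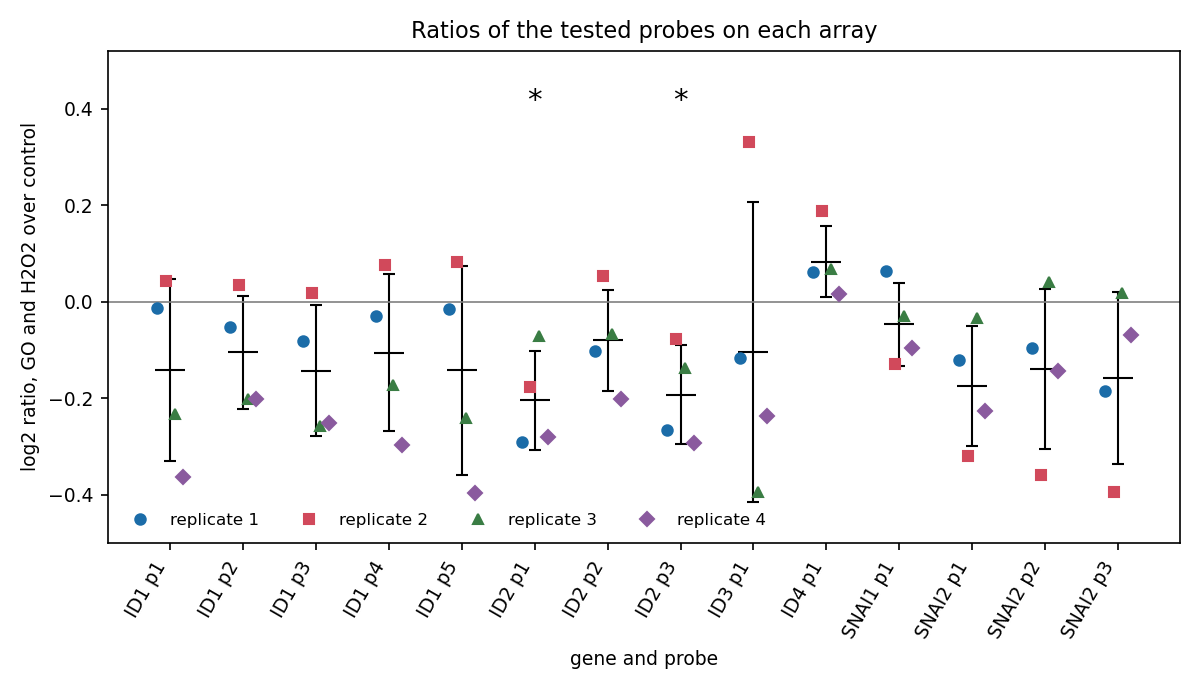
Log2 ratio of GO and H2O2 over control (vertical axis) of the 14 tested probes of ID1, ID2, ID3, ID4, SNAI1 and SNAI2 (horizontal axis), with 1 point per array, the mean as a bar and the SD over 4 arrays as whiskers. Asterisks mark the 2 ID2 probes that passed the test; the ID4 probe is the one with all 4 points above 0. Replicate 2 is the highest point for ID1, ID3 and ID4 and the lowest for SNAI1 and SNAI2.

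The counts depend on single arrays. With 3 arrays, limma called 0 of the 8 probes without replicate 1, without replicate 3 or without replicate 4, and 2 without replicate 2. Those 2 calls were ID2 probe 3 and ID3 (limma adjusted p = 0.0363 and 0.0450), while ID2 probe 1 no longer passed (limma adjusted p = 0.0566). The unadjusted counts were then 3, 5, 2 and 4 of 8 without replicates 1, 3, 4 and 2. Over all tested probes the calls were 2, 3898, 38 and 0 without replicates 1, 2, 3 and 4, in place of 4137.

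ID2 encodes a dominant negative partner of E proteins that is abundant in proliferating myoblasts. Its 3 probes lie in a row on the same transcript and cover positions 81223727 to 81223840 of chromosome 15, minus strand (build EquCab1, as all positions here). Probe 1 covers 81223781 to 81223840, probe 2 covers 81223761 to 81223820 and probe 3 covers 81223727 to 81223786. Probe 2 has no base of its own, since it shares 40 bases with probe 1 and 26 with probe 3. The stretch common to probes 2 and 3 is shown because it links the probe that did not pass to one that did; capitals mark the 6 bases that all 3 probes hold.
ID2 probes 2 and 3: TTAAATgccctttctgcagttggaag

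Signals are the deposited processed intensities of Feature Extraction, with background subtracted and dyes normalised. At ID2 probe 1 the control signal was 482, 444, 430 and 380 in replicates 1 to 4, and the treated signal 384, 388, 410 and 297. On every array the treated channel was the lower one, although the ranges of both groups overlapped between arrays. The log2 ratios were -0.29, -0.18, -0.070 and -0.28, with a mean of -0.20 ± 0.10 (SD, n = 4), a 95% confidence interval of -0.32 to -0.085 and a limma adjusted p of 0.0400. As a fold, the control was 1.15 times the treated signal.

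ID2 probe 3 gave control signals of 564, 492, 490 and 488 and treated signals of 459, 461, 435 and 370. Here too the treated channel was the lower one on every array. By normalised ratio that held for 21.2% of all tested probes. Its ratios of -0.27, -0.078, -0.14 and -0.29 had a mean of -0.19 ± 0.10 (SD, n = 4), a 95% confidence interval of -0.31 to -0.073 and a limma adjusted p of 0.0449. Both calls stand close to the threshold and were lost in several alternatives: with the deposited processed signals the adjusted p from limma was 0.0593 for each, with means of -0.24.

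At ID2 probe 2, which lies between them, the control signal was 236, 223, 209 and 204, and the treated signal 206, 225, 194 and 167. In replicate 2 the treated signal was the higher one. Ratios of -0.10, 0.053, -0.068 and -0.20 averaged -0.079 ± 0.10 (SD, n = 4), with a limma adjusted p of 0.294 and a 95% confidence interval of -0.20 to 0.041. All 3 ID2 probes shared the order of the arrays in part, with replicate 4 or 1 lowest. When the 3 probes were averaged before the test, ID2 had a mean of -0.16 and a limma adjusted p of 0.0612, so that the call for the gene rests on which probe represents it.

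**Figure D2:**
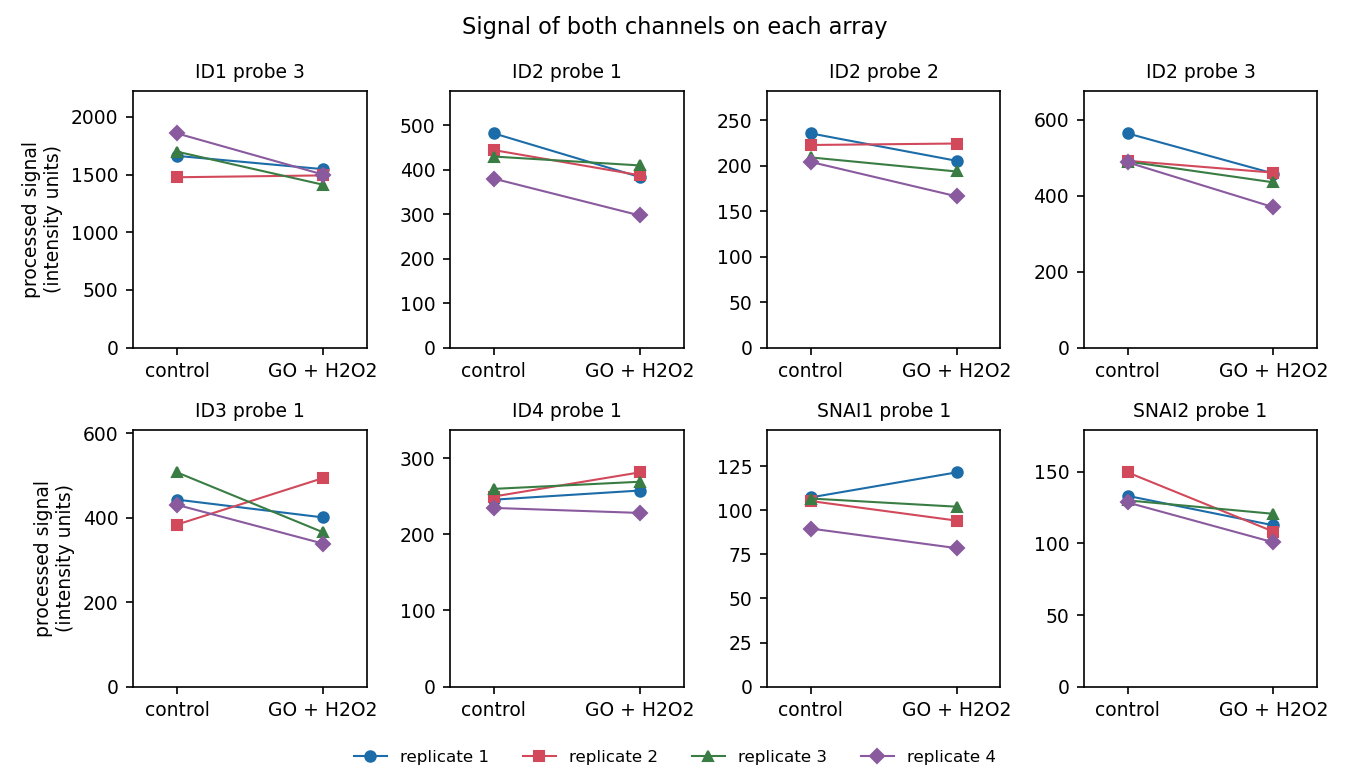
Processed signal (vertical axis, intensity units from 0) in the control and the GO and H2O2 channel (horizontal axis) for 8 probes of ID1, ID2, ID3, ID4, SNAI1 and SNAI2, with 1 line per array. The lines of ID2 probes 1 and 3 and SNAI2 probe 1 fall on all 4 arrays, while ID3 rises in replicate 2 and falls in the other 3.

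ID1, a classical early target of BMP signalling, had 5 probes that are nearly the same sequence. Each is shifted by 1 base from the one before, so that 56 of 60 bases are common to all 5; they run from 22637653 to 22637716 on chromosome 22. The first 24 bases of each are printed to show this tiling, with capitals for the bases that not all 5 probes hold.
ID1 probe 1: CAATgatcaccgactgagaatatt
ID1 probe 2: AATgatcaccgactgagaatattg
ID1 probe 3: ATgatcaccgactgagaatattgt
ID1 probe 4: Tgatcaccgactgagaatattgtt
ID1 probe 5: gatcaccgactgagaatattgttt

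Because of this overlap the 5 probes are close to repeated readings of 1 site. Within an array their ratios spanned 0.067, 0.064, 0.084 and 0.19 in replicates 1 to 4. Their means had an SD of 0.020 between probes, while the mean of the 5 had an SD of 0.16 between arrays. The spread of ID1 was thus between arrays, not between probes.

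The brightest ID1 probe, probe 3, had control signals of 1662, 1476, 1698 and 1857 and treated signals of 1547, 1493, 1412 and 1500. Replicate 2 was the one array on which the treated signal was not the lower one. Its ratios of -0.081, 0.018, -0.26 and -0.25 averaged -0.14 ± 0.14 (SD, n = 4), with a limma adjusted p of 0.128. The limma 95% confidence interval ran from -0.28 to -0.0041, and the unadjusted p was 0.0451.

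The other ID1 probes were likewise highest in replicate 2 and lower in replicates 3 and 4 than in replicate 1. Probe 1 had ratios of -0.014, 0.042, -0.23 and -0.36 (mean -0.14 ± 0.19, SD, n = 4), with control signals of 1244 to 1545 and treated signals of 974 to 1509. Probe 2 had ratios of -0.052, 0.035, -0.20 and -0.20 (mean -0.11 ± 0.12), with control signals of 1321 to 1514 and treated signals of 1089 to 1471. All ID1 probes were above 0 in replicate 2 and below 0 in replicates 3 and 4. Probe 4 had ratios of -0.030, 0.077, -0.17 and -0.30 (mean -0.11 ± 0.16), with control signals of 1347 to 1617 and treated signals of 1120 to 1559. Probe 5 had ratios of -0.014, 0.083, -0.24 and -0.40 (mean -0.14 ± 0.22), with control signals of 1497 to 1827 and treated signals of 1178 to 1765. The limma adjusted p of the 5 probes lay between 0.128 and 0.285.

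ID3, a close relative of ID1 with the same mode of action, varied more between arrays than any other tested probe of these genes. Its probe lies at 29734795 to 29734854 on chromosome 2. It is shown whole because its last 3 bases, in capitals, are a stop triplet in the 1 reading frame that ends there, and that frame holds no other stop.
ID3 probe: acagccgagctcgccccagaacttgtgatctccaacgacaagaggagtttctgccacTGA

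Control signals at ID3 were 443, 384, 507 and 431, and treated signals 401, 494, 366 and 339. Replicate 2 went against the others, with the highest treated and the lowest control signal of the 4. The ratios were -0.12, 0.33, -0.39 and -0.24, with a mean of -0.10 ± 0.31 (SD, n = 4), a 95% confidence interval of -0.37 to 0.16 and a limma adjusted p of 0.527. Without replicate 2 the mean was -0.25 and the limma adjusted p 0.0450, so that this array decided whether ID3 passed. Without replicate 3 the mean was -0.0074.

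ID4 encodes the remaining ID protein, and its ratio had the other sign. The ID4 probe lies at 18060977 to 18061036 on chromosome 20 and had control signals of 245, 250, 260 and 235 and treated signals of 257, 281, 269 and 228. Its normalised ratios of 0.062, 0.19, 0.068 and 0.015 were above 0 on all 4 arrays, with a mean of 0.083 ± 0.074 (SD, n = 4), a 95% confidence interval of -0.022 to 0.19 and a limma adjusted p of 0.216. In replicate 4 the sign hung on the normalisation, since the deposited processed signal was lower in the treated channel there. The difference between ID4 and the other ID genes was not tested.

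The SNAIL genes are best known for repressing epithelial genes. In myoblasts SNAI1 and SNAI2 block access of MyoD to differentiation-specific E-boxes. The SNAI2 probes are 3 neighbours on chromosome 9, minus strand, at 30960200 to 30960259 (probe 1), 30960167 to 30960226 (probe 2) and 30960137 to 30960196 (probe 3). Neighbouring probes share 27 and 30 bases, and the stretch common to probes 1 and 2 is printed to show the overlap.
SNAI2 probes 1 and 2: ttcttcactccaactccaaatgacaaa

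At SNAI2 probe 1 the control signal was 133, 150, 130 and 129 and the treated signal 113, 108, 121 and 101. The treated signal was the lower one on each of the 4 arrays, as the normalised ratio was for 21.2% of all tested probes. Ratios of -0.12, -0.32, -0.034 and -0.23 had a mean of -0.18 ± 0.12 (SD, n = 4) and a 95% confidence interval of -0.31 to -0.043, and the limma adjusted p was 0.0710. With the deposited processed signals the mean was -0.29 and the limma adjusted p 0.0491, so that the call for this probe differed with the background correction and dye normalisation.

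The other SNAI2 probes did not pass under any setting tried. Probe 2 had control signals of 87.3, 83.3, 84.2 and 65.2 and treated signals of 68.7, 52.9, 72.6 and 56.8, with ratios of -0.096, -0.36, 0.040 and -0.14 (mean -0.14 ± 0.17, SD, n = 4, limma adjusted p = 0.177). Probe 3 had control signals of 64.5, 70.1, 60.1 and 54.8 and treated signals of 45.4, 30.9, 56.0 and 48.3, with ratios of -0.19, -0.39, 0.018 and -0.068 (mean -0.16 ± 0.18, SD, n = 4, limma adjusted p = 0.154). At all 3 SNAI2 probes replicate 2 was the lowest array and replicate 3 the highest. From the deposited processed signals the means of probes 2 and 3 were -0.35 and -0.49 (limma adjusted p = 0.0544 and 0.127), larger than after normexp with its offset. Probe 3 was dim, with 9.94% of all tested probes below it in mean signal. Its deposited log2 ratios were -0.51, -1.18, -0.10 and -0.18, so that replicate 2 weighed most in that mean. In the normexp and loess fit without replicate 2, the means of probes 2 and 3 were -0.067 and -0.079. With the 3 probes averaged, SNAI2 had a mean of -0.16 and a limma adjusted p of 0.119.

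SNAI1 was measured by 1 probe at 38178054 to 38178113 on chromosome 22. Control signals were 107, 105, 107 and 89.7, and treated signals 122, 94.2, 102 and 78.5. Replicate 1 was higher with GO and H2O2 and the other 3 arrays were lower. The ratios of 0.065, -0.13, -0.029 and -0.095 averaged -0.047 ± 0.085 (SD, n = 4), with a 95% confidence interval of -0.16 to 0.063 and a limma adjusted p of 0.493. Without background correction the mean was 0.018, the other side of 0 (limma adjusted p = 0.819).

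HEYL and MSX1 were at the edge of detection and were not tested. The HEYL probe (chromosome 2, 16781746 to 16781805) was well above background on 0 of 4 arrays in either channel. Its control signals were 13.0, 11.4, 15.9 and 9.60 and its treated signals 22.2, 20.6, 21.7 and 12.6. The normalised ratios of HEYL were 0.14, 0.31, 0.14 and 0.094 and the deposited ones 0.77, 0.86, 0.45 and 0.39 on the log2 scale. They were above 0 on all 4 arrays, but signals of this kind are too close to background for a ratio to be read. The MSX1 probe (chromosome 3, 106516016 to 106516075) was well above background on 2 arrays in the green and on 1 in the red channel. Its control signals were 26.4, 16.8, 34.4 and 24.9 and its treated signals 20.2, 14.5, 24.6 and 20.3. The deposited ratios of MSX1 were -0.39, -0.21, -0.48 and -0.30 on the log2 scale, while the normalised ratios were 0.043, 0.075, -0.14 and 0.0024, so that the sign differed on 3 arrays between these processings, which differ in background correction and in dye normalisation. Both probes end in a stop triplet (capitals), which is the reason for printing them.
HEYL probe: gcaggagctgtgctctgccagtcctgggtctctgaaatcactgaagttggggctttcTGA
MSX1 probe: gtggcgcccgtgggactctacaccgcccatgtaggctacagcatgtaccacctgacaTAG

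The median ratio of probes of like intensity was close to 0. For each tested probe the 500 probes of most similar mean signal had a median ratio between -0.016 and 0.023. Such a median does not show the spread of single probes, and loess centres it near 0. The ratios of the 14 probes ran from -0.20 to 0.083. An absolute ratio at least that of ID2 probe 1 was found in 15.0% of all tested probes, and one at least that of ID3 in 44.7%. Across arrays, the ID and SNAIL genes did not share 1 order. Replicate 2 was the highest of the 4 for ID1 (mean of the probes 0.051), ID3 (0.33) and ID4 (0.19) and the lowest for SNAI1 (-0.13) and SNAI2 (-0.36). For ID2 replicate 4 was the lowest (-0.26) and replicate 2 the highest (-0.067). With 4 arrays no correlation between genes was computed.

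**Figure D3:**
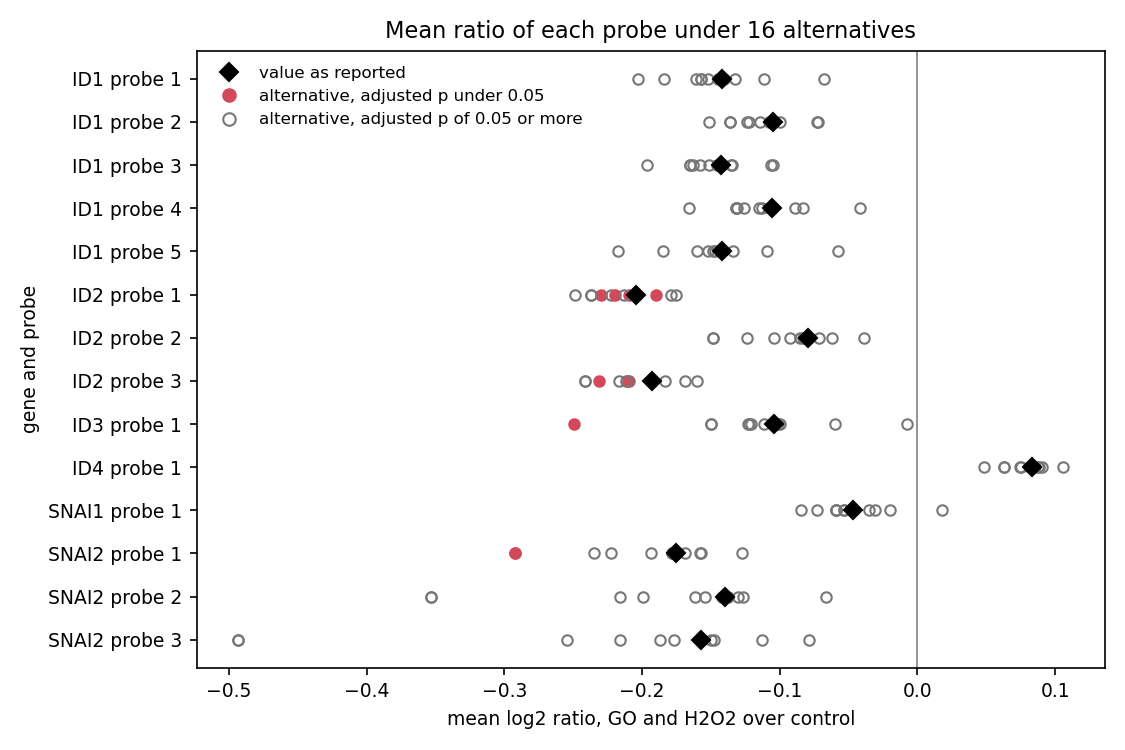
Mean log2 ratio of GO and H2O2 over control (horizontal axis) of the 14 tested probes (vertical axis) as reported (diamonds) and under 16 alternatives of processing, test or arrays (circles, filled where the adjusted p was under 0.05). ID2 probe 1 passed in 7 and ID2 probe 3 in 6 of the 16. The sign held in all 16 for each probe except SNAI1, for which it held in 15. Alternatives of filter, robust estimation, pairing or test keep the mean, so that the sign could not change in them.

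The genes that the inhibitors act on were looked at next, with 1 probe per gene (the brightest tested). Of 10 myogenic bHLH, E protein and MEF2 genes, 9 were tested. With GO and H2O2, 4 rose and 0 fell (1 probe per gene name over all genes: 9.65% higher, 8.07% lower), and no gene of this list was lower at an unadjusted p under 0.05. The median ratio of the 9 was 0.15. MEF2D was not analysed here.

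MYOG, the bHLH factor that starts terminal differentiation, had ratios of 0.30, 0.37, 0.48 and 0.16 in replicates 1 to 4 (mean 0.33 ± 0.13, SD, n = 4, limma adjusted p = 0.0212), and both its probes passed. MEF2A, a MADS-box partner of the MyoD family, had ratios of 0.41, 0.20, 0.23 and 0.21 (mean 0.26 ± 0.097, limma adjusted p = 0.0233). MYF6, the late member of the MyoD family, had ratios of 0.22, 0.18, 0.10 and 0.36 (mean 0.21 ± 0.11, limma adjusted p = 0.0377). The MYF6 probe was dim, at a mean log2 signal of 7.07, and its mean ratio was 0.66 with the deposited processed signals. MYOG, MEF2A and MYF6 were above 0 on every array. So was MEF2C, with 0.27, 0.15, 0.21 and 0.17 (mean 0.20 ± 0.051, limma adjusted p = 0.0274, both probes passed).

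The E proteins, which the ID proteins bind, did not pass at their brightest probes. TCF4 (E2-2) had a mean of 0.13 ± 0.074 (SD, n = 4, limma adjusted p = 0.0796), with 1 of its 4 tested probes past the threshold and probe means from -0.070 to 0.17. TCF3 (E12 and E47) had a mean of 0.083 ± 0.058 (limma adjusted p = 0.194), and TCF12 (HEB) a mean of -0.051 ± 0.048 (limma adjusted p = 0.385). Nor did the determination factors: MYOD1 had a mean of 0.15 ± 0.22 (limma adjusted p = 0.234), with its other probe at -0.032, and MYF5 a mean of 0.088 ± 0.092 (limma adjusted p = 0.224).

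Among 19 BMP and SMAD genes, the pathway upstream of the ID genes, 12 were tested, 3 rose and 0 fell, with a median ratio of 0.088. The shares over all genes with 1 probe per gene name were 9.65% higher and 8.07% lower. BMP4, a ligand that induces ID genes, had ratios of 0.19, 0.27, 0.19 and 0.29 (mean 0.23 ± 0.054, SD, n = 4, limma adjusted p = 0.0210), and 9 of its 9 probes passed. BMP2, a ligand of the same group, had ratios of 0.25, 0.31, 0.22 and 0.068 (mean 0.21 ± 0.10, limma adjusted p = 0.0372) and 1 of 2 probes passed. With both averaged the limma adjusted p was 0.0542. Probes of the same gene share the 4 arrays, so they are not independent values. CHRD (chordin), an extracellular antagonist of BMP ligands, had ratios of 0.24, 0.076, 0.24 and 0.31 (mean 0.22 ± 0.10, limma adjusted p = 0.0340). It met the filter in 1 channel only, at a mean log2 signal of 6.92. With the filter asked of both channels it was not tested, and 8 of 29 genes of the 3 lists described here passed. Whether the ratios of these genes and those of the ID genes are linked was not tested. At an unadjusted p under 0.05, which 36.7% of all tested probes met (17.5% lower), SMAD6, an inhibitory SMAD, was lower. It had a mean of -0.11 ± 0.064 and a limma adjusted p of 0.108. FST (follistatin), an extracellular antagonist, was higher at an unadjusted p of 0.0400, with a mean of 0.14 ± 0.12 and a limma adjusted p of 0.119.

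Of 16 other repressors of myogenic differentiation, 10 were tested, 1 rose and 1 fell, with a median ratio of 0.050. BHLHE40, a bHLH repressor of the circadian and stress response, had ratios of 0.34, 0.44, 0.52 and 0.62 (mean 0.48 ± 0.12, SD, n = 4, limma adjusted p = 0.0125). ZEB2, a zinc-finger E-box repressor, had ratios of -0.12, -0.15, -0.17 and -0.20 (mean -0.16 ± 0.035, limma adjusted p = 0.0377). Over all genes with 1 probe per gene name, 9.65% were higher and 8.07% lower, so that these counts are close to the background. In all, 9 of the 31 tested genes of the 3 lists passed, beside 17.7% of all genes with 1 probe per gene name. Without replicates 1, 3 or 4 the limma count was 0, and without replicate 2 it was 7.

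**Figure D4:**
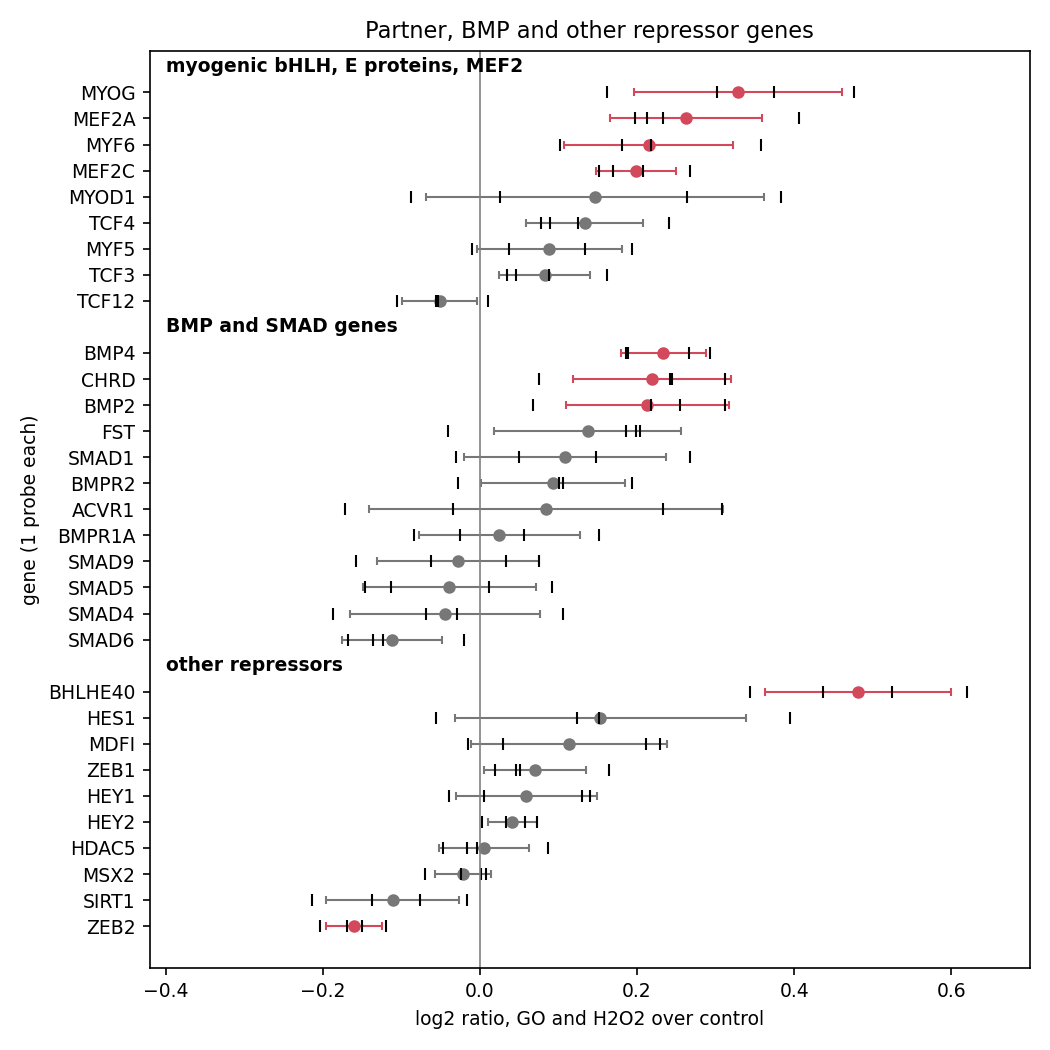
Log2 ratio of GO and H2O2 over control (horizontal axis) of the 31 tested genes of the 3 lists (vertical axis, 1 probe per gene), with the mean as a dot, the SD over 4 arrays as whiskers and each array as a tick; red marks genes past the threshold. Of the 9 red genes, ZEB2 alone lies below 0.

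Markers of the cells in culture moved with the same contrast. Over all genes with 1 probe per gene name, 9.65% were higher and 8.07% lower, and 49.2% of all tested probes had means below 0. Of 11 markers of differentiating muscle, 10 were tested, all 10 had means above 0 and 6 rose. Their means ran from 0.022 ± 0.14 for DES to 0.75 ± 0.48 for MYH8 (SD, n = 4), the perinatal myosin heavy chain. MYOG and MYOD1 are among these markers and in the bHLH list above, so that the 2 counts are not separate. The summed processed signal of the muscle markers was 151501 to 185318 in the control and 160818 to 221947 in the treated channel. Of 8 fibroblast markers, 6 were tested, with THY1 higher and LUM lower; means ran from -0.43 for LUM (limma adjusted p = 0.0131, 6 of 6 probes fell) to 0.30 for COL1A2, whose 9 probes had means from -0.073 to 0.30 and of which 0 passed. Fibroblast markers summed to 300512 to 348426 in the control and 294114 to 437909 in the treated channel. COL1A2 and COL3A1 weighed most in this sum, with mean log2 signals of 17.6 and 16.9, and neither passed. DCN, the next brightest, had 15.4. Of 3 leukocyte markers, 2 were tested: CD14 fell by 0.17 (limma adjusted p = 0.0385) and CD68 had a mean of 0.0049, with sums of 2505 to 3579 in the control and 2183 to 2993 in the treated channel. For satellite cells MYF5 and SDC4 were tested and neither passed, with sums of 353 to 440 and 369 to 453, while PAX7 and CDH15 were not analysed here. The smooth muscle marker ACTA2 had a mean of 0.14 ± 0.26, and 0 of 4 adipocyte and 0 of 4 endothelial markers were bright enough to test. Whether the mix of cells plays a part in the ratios of the inhibitors was not tested, and in these bulk cultures fewer cells of a type and less RNA per cell cannot be told apart.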

How the data were processed

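Gene expression of 4 treated replicates was measured on 4 two-colour arrays, each against control RNA. The design counts 4 control replicates, while the sample descriptions give them 1 replicate name. The scanner intensities were deposited as the authors extracted them with Agilent Feature Extraction 10.10.1.1. The deposited processed signals had background subtracted and dyes normalised (linear and lowess), and the deposited log10 ratio is processed red over green, per the file headers. The authors' value table held the same log10 ratios (largest difference 0). Mean intensities were corrected with normexp (offset 50) against the background medians and normalised by loess in each array (control spots weighted 0), in limma 3.58.1 and R 4.3.3. Outlier spots (7 to 16 gene spots per array) were left out and spots of a probe averaged. Within-array ratios pair treated with control, and lmFit and eBayes tested their mean against 0. The number of arrays limits the precision. The limma step was tested on simulated data.

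Members and gene lists were chosen with earlier results of these data known. All member probes, each list gene past the threshold, all tested bHLH, E protein and MEF2 genes, and the lowest and highest marker of a list are named; SMAD6, FST and a few marker genes were added after their values were seen. Positions are those of the file headers' build; sequences come from the array files. Alternatives were other background corrections and normalisations, filters, estimators, an unpaired fit, the methods' t-test, and each array left out.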

Additional observations from a re-analysis of the deposited data

Results flagged for a closer look

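FST, which encodes follistatin, an extracellular antagonist of activins and BMPs in the BMP and SMAD list, had log2 ratios of 0.20, -0.041, 0.19 and 0.20 in replicates 1 to 4. Replicate 2 stood apart from the others, with a gap of 0.927 of the whole range, above Dixon's 95% limit for 4 values. This was 1 of 45 values checked, of which chance marks about 1 in 20, and 0 of the 14 inhibitor probes were over the limit. The limma mean of FST was 0.14 ± 0.12 (SD, n = 4, adjusted p = 0.119).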

How the results depend on the processing

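The signs of the 14 inhibitor probes held in all but 1 of 224 alternatives, in which SNAI1 turned to 0.018 without background correction. Part of this was fixed in advance, because the other filters, robust estimation, the unpaired fit and the t-test leave the mean as it is. The authors' ratios repeat Agilent's processed signals, so that these 2 alternatives are 1 and the same. Calls of the inhibitor probes were less stable: 202 kept their side of the threshold, 19 lost it (all ID2) and 3 gained it (SNAI2 probe 1 and ID3). SNAI2 probe 1 gained it in those 2 repeated alternatives. By gene name, 2 of 8 probes passed; the count was 1 with Agilent's processed signals, 1 with the authors' ratios, 1 with no background correction, 1 with normexp at offset 0, 0 with median centring in place of loess and 0 with the methods' t-test, while it ranged from 0 to 2 with an array left out. The 1 call from processed signals was SNAI2 probe 1, not ID2, and the median of the 8 was then -0.24. Without the replicate block, that is with channels unpaired, 0 of the 8 inhibitor probes, 2 of 31 list genes and 594 of all probes passed. The list count of 9 was 0 with median centring and 0 with the t-test, and 0 to 7 with an array left out. Over all probes 4137 passed; 12 did with median centring, 5 with the t-test and 0 to 3898 with an array left out (6694 at an unadjusted p under 0.05 without replicate 4). Of the calls 55.6% were higher in the reported fit, 100% with median centring, 63.8% unpaired and 40% with the t-test. The causes were not tested. HEYL and MSX1 were limited by signal over background.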

Other observations

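Relatives of the 2 inhibitors that could not be tested were measurable, as seen after their values were known. MSX2, the paralogue of MSX1, had 5 tested probes with means from -0.027 to 0.043, and 0 passed with limma; its brightest probe had a mean of -0.021 ± 0.035 (SD, n = 4, limma adjusted p = 0.714). HEY2, a bHLH repressor of the HEYL family, had 5 tested probes with means from -0.0026 to 0.097, and 0 passed. HEY1 had a mean of 0.059 ± 0.090 (SD, n = 4, limma adjusted p = 0.399), with a 95% confidence interval of -0.054 to 0.17.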
